A study of Mus musculus with 12 samples.

Results

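The genes of fatty acid synthesis and the phosphatidate phosphatase gene Lpin1 were followed in mouse embryonic fibroblasts. These were labelled as Vps15 knockout or WT and were kept in basal medium or moved to EBSS. The genes were chosen by name, with earlier results of these data known. They are Srebf1, Acly, Acss2, Acaca, Fasn, Elovl6, Scd1, Scd2, Fads2 and Lpin1, 10 of the 32721 genes in the deposited table. All 10 had enough reads to be tested. The gene Pik3r4 encodes Vps15, a protein that the class 3 PI3K needs to make phosphatidylinositol 3-phosphate on endosomes and autophagosomes. Poly-A RNA was sequenced in 12 libraries, 3 in each of 4 groups. The Vps15KO EBSS group held Vps15f/f fibroblasts given adeno-CRE, an adenovirus that carries the recombinase excising floxed DNA, and then kept for 2 h in EBSS, a balanced salt solution without amino acids. The Vps15KO basal group held the same cells in growth medium. The WT EBSS and WT basal groups held Vps15f/f fibroblasts given adeno-GFP and handled in the same 2 ways, so WT stands here for floxed cells with virus and without CRE. All cells came from high glucose DMEM (4.5 g/L) with 10% serum at 90% confluence and were sampled on day 5 of transduction. The excised exons are not named, the library names carry an unexplained pLEX, and CRE itself and the loss of Vps15 cannot be told apart. Whether EBSS held serum is not stated, so the loss of amino acids, serum and the change of glucose cannot be told apart.

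In fatty acid synthesis, ATP citrate lyase (Acly) makes cytosolic acetyl-CoA from citrate and acetyl-CoA synthetase 2 (Acss2) makes it from acetate. Acetyl-CoA carboxylase 1 (Acaca) turns it into malonyl-CoA, and fatty acid synthase (Fasn) builds palmitate from both. Elovl6 lengthens palmitate to stearate, the delta-9 desaturases Scd1 and Scd2 make monounsaturated acids, and the delta-6 desaturase Fads2 acts on polyunsaturated ones. Srebf1 codes for SREBP-1, a membrane-bound transcription factor that is cut free in the Golgi and switches these genes on. Lpin1 codes for lipin-1, which makes diacylglycerol from phosphatidate for triglyceride and phospholipid synthesis and also acts in the nucleus. Gene counts do not tell the SREBP-1a and SREBP-1c transcripts apart.

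Promoters are shown for Srebf1, Acss2 and Fasn, the 3 genes with a window that holds TCACCC, and for Lpin1, whose change in EBSS differed between the genotypes. RefSeq (GRCm38.p6) gave windows of 300 bases, 250 before and 50 after a start, for 8 of the 10 genes, 10 windows in all. Scd1 and Scd2 had no entry. The windows below run 5′ to 3′ on the gene's strand. Capitals mark CCAAT on either strand, which reads ATTGG on the other, and TCACCC, the first letters of the sterol response element of SREBP.
Srebf1: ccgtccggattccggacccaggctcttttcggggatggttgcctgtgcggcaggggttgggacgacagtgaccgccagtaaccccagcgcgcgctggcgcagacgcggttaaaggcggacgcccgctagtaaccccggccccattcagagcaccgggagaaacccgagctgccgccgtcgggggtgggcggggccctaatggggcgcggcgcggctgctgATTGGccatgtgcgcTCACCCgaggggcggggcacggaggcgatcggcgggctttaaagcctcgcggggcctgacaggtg
Acss2: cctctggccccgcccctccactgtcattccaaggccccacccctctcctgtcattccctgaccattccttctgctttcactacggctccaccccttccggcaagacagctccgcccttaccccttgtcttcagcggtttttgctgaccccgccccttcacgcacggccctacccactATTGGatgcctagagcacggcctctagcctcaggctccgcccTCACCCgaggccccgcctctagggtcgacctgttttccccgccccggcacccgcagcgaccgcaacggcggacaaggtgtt
Fasn: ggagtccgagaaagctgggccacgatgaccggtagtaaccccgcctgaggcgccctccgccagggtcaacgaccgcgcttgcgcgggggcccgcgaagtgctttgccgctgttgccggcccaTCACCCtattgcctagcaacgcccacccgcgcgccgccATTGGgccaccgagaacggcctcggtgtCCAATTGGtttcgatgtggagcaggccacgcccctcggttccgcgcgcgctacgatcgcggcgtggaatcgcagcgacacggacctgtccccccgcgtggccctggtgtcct
Lpin1: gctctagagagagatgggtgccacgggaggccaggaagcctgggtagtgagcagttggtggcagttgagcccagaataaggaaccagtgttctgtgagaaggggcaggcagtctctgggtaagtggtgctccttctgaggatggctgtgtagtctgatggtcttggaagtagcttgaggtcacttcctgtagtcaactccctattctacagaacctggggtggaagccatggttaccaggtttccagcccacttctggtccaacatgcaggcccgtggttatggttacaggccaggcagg
The Srebf1 window is 1 of 3 for that gene and lies at chr11:60210422-60210721, minus strand. The others are at chr2:155517793-155518092 (Acss2, plus strand), chr11:120824498-120824797 (Fasn, minus strand) and chr12:16610917-16611216 (Lpin1, minus strand). Counted from the first transcribed base, TCACCC began at -15 in Srebf1, -31 in Acss2 and -128 in Fasn, and ATTGG at -30, -73 and -90 in the same order. In Fasn a CCAAT at -62 overlapped a further ATTGG at -59. The Lpin1 window held none of the letters searched. It lies inside the annotated gene (16535669 to 16653903, minus strand), away from the 5′ end. The Acaca window (84195188 to 84195487) likewise lies inside its gene (84129635 to 84401651, plus strand). So does the Srebf1 window shown (gene at 60199084 to 60224186, minus strand). The other Srebf1 windows lie nearer the 5′ end and held no TCACCC. Starts nearer the 5′ ends of Lpin1 and Acaca were not searched. TCACCC, searched on both strands and chosen after the sequences were seen, was in 3 of the 10 windows (1 each of Srebf1, Acss2 and Fasn), and in 16.2% of 32851 mouse promoter windows of this length. CCAAT was in 5 of the 10 (2 of Srebf1, and Acss2, Fasn and Acly) against 37.4% of all windows, and the GC box GGGCGG in 5 of the 10 (2 of Srebf1, and Acly, Acss2 and Fads2) against 35.7%. The longer sterol response element TCACNCCAC was in 0 of the 10, against 1.2%, and the E-box CACGTG in 0 of the 10, against 7.2%. Acly, Acaca and Elovl6, which like Acss2 and Fasn were higher in Vps15KO in both media, had no TCACCC in their windows. These are matches of letters in short windows, and binding was not measured.

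Libraries held 21278921 to 21698584 reads in genes. Pik3r4 (chromosome 9, 105642995 to 105687655) had 623, 602 and 672 normalised counts in Vps15KO EBSS and 633, 700 and 640 in Vps15KO basal libraries. It had 959, 891 and 834 in WT EBSS and 864, 879 and 884 in WT basal libraries. All Vps15KO libraries were below all WT libraries, at 70.7% of WT in EBSS (adjusted p = 1.03e-05) and 75.1% in basal medium (adjusted p = 8.41e-05). Much Pik3r4 RNA was thus still present in Vps15KO libraries, and Vps15 protein was not measured here. A normalised count is the read count divided by the authors' size factor for the library. The labels do not say that replicates were separate cultures, and p-values then measure the spread between these libraries, which may be technical. WT basal replicate 2 stood apart from its group, with a chi-square per gene of 21.1 and 20.2 to its partners, where these gave 3.15 between themselves. WT EBSS replicate 1 did so too (8.17 and 11.8, and 3.82 between its partners). Results are therefore also given without both libraries. Fibroblast markers were present in all groups except Thy1 (at most 3.18 normalised counts). The summed level of 10 of them was 283136 to 296620 in Vps15KO EBSS and 284811 to 288006 in Vps15KO basal libraries, against 509526 to 544946 in WT EBSS and 571920 to 599330 in WT basal libraries. Of the 9 fibroblast markers tested, 7 were lower in Vps15KO in EBSS and 8 in basal medium, and 0 were higher. The 5 macrophage and leukocyte markers summed to 2636 to 3309 and 2919 to 3798 in Vps15KO EBSS and basal libraries, against 802 to 897 and 865 to 897 in WT EBSS and basal libraries. Nearly all of this was Cd68, a lysosomal protein, while Ptprc, Adgre1 and Lyz2 had at most 3.01. Csf1r, a macrophage receptor, had 14.8 to 16.7 in Vps15KO EBSS and 3.92 to 9.76 in Vps15KO basal libraries, against 12.2 to 16.3 in WT EBSS and 1.06 to 5.00 in WT basal libraries. It was higher in Vps15KO in basal medium (log2 difference 0.37 ± 0.14, SE, adjusted p = 0.0334) and rose in EBSS in both genotypes (0.48 ± 0.14 in Vps15KO, 0.81 ± 0.14 in WT). Of 7 adipocyte markers in the table, Plin4 and Fabp4 were tested, Retn had 0 to 4.90, Adipoq, Plin1, Cidec and Cfd had at most 2.96, and the sums were 2223 to 2278 in Vps15KO EBSS, 1609 to 1702 in Vps15KO basal, 2788 to 2934 in WT EBSS and 1837 to 2145 in WT basal libraries. Markers of hepatocytes, epithelium and endothelium summed to at most 25.7. Those of epithelium summed to 16.3 to 25.6 in EBSS and to 0.976 to 6.0 in basal libraries of both genotypes. Those of endothelium summed to 17.6 to 25.7 in Vps15KO and to 3.18 to 8.0 in WT libraries. The part of these markers in the results below was not tested. In bulk RNA, fewer cells with a transcript and less transcript per cell cannot be told apart.

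The 10 genes together made up more of the RNA in Vps15KO than in WT cells. Their summed normalised count was 50196 to 50855 in Vps15KO EBSS and 51435 to 57669 in Vps15KO basal libraries. It was 42238 to 46579 in WT EBSS and 34273 to 37736 in WT basal libraries, so the 4 groups did not overlap. The stearoyl-CoA desaturases were most of this sum. Scd1 and Scd2 took 66.2 to 66.3% of it in Vps15KO EBSS, 64.2 to 65.5% in Vps15KO basal, 69.0 to 69.3% in WT EBSS and 60.7 to 65.4% in WT basal libraries. Per kilobase of the longest annotated transcript, Scd2 had the highest level, with 4820 ± 308 normalised counts per kb in Vps15KO basal and 3301 ± 294 in WT basal libraries. Counts are given as mean ± SD (n = 3), and log2 differences and changes with ± SE. Scd1 came next (1922 ± 88.0 in Vps15KO basal, 1072 ± 105 in WT basal), then Fads2 (1242 ± 51.8 and 943 ± 25.6) and Acly (953 ± 68.0 and 551 ± 29.9). Lpin1 was among the lowest per kb, with 132 ± 11.2 in Vps15KO basal and 80.3 ± 6.68 in WT basal libraries, near Acaca (163 ± 7.59 and 125 ± 19.1). Scd1 and Scd2 are close paralogs and neighbours on chromosome 19, and whether the counting assigned their reads unevenly was not tested.

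**Figure D1:**
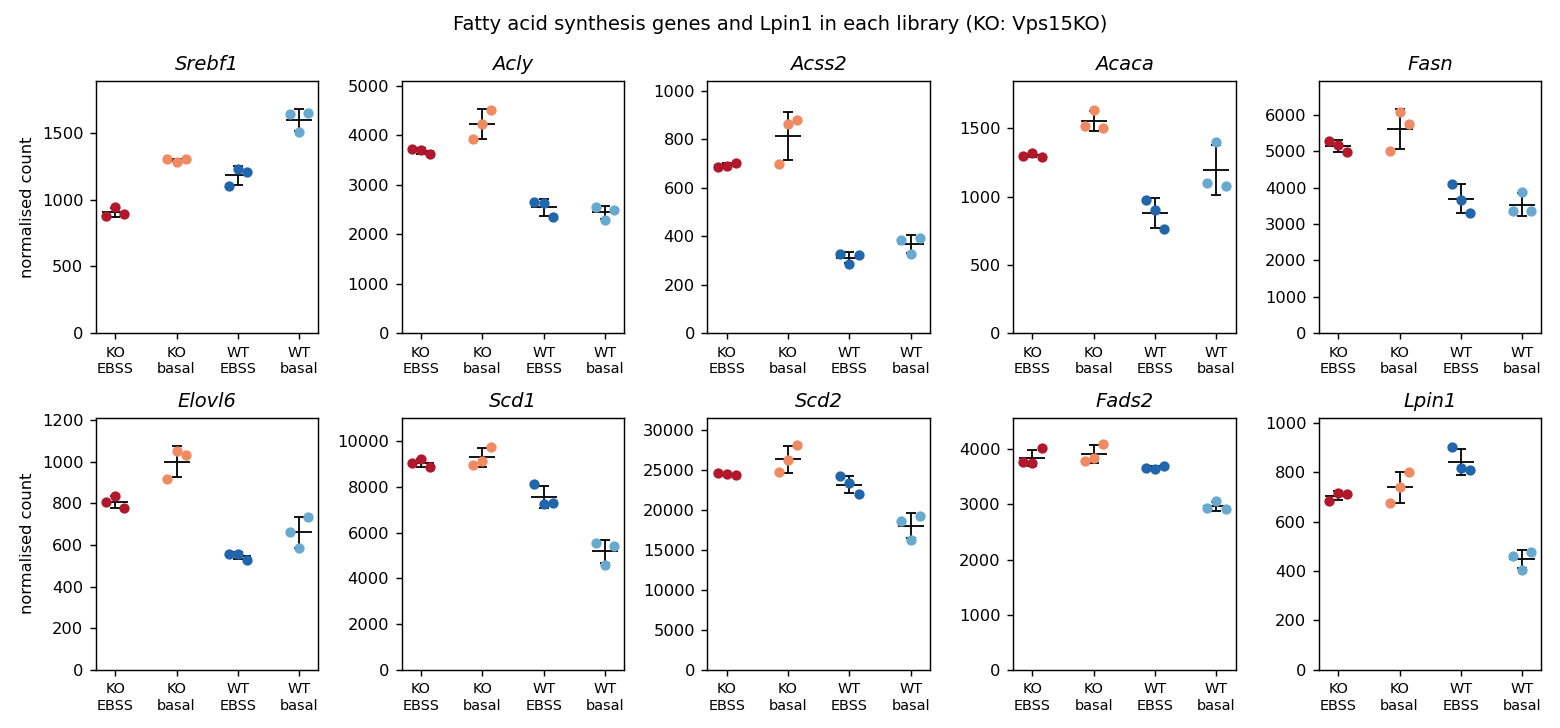
Normalised count (vertical axis, from 0) of each of the 10 genes in the 12 libraries, 3 points for each of Vps15KO EBSS, Vps15KO basal, WT EBSS and WT basal, with the mean and SD as black bars. Acss2 is at 687 to 881 in the 6 Vps15KO libraries and at 287 to 394 in the 6 WT libraries, while Lpin1 is lowest in WT basal (406 to 478) and highest in WT EBSS (809 to 904).

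In basal medium, 9 of the 10 genes were higher in Vps15KO than in WT cells and the tenth, Srebf1, was lower. The 9 were 1.30-fold (Acaca) to 2.21-fold (Acss2) higher, and in all 10 genes the 3 Vps15KO libraries did not overlap the 3 WT libraries. A gene was called at an adjusted p under 0.05 in limma's moderated test. Of the 14279 genes tested, 29.3% were called higher and 29.2% lower (58.5% in all), and groups did not overlap in 30.5% (higher) and 31.1% (lower). The median log2 difference was 0.62 over the 10 genes and -0.01 over all genes tested. In EBSS, 6 of the 10 were higher (Acly, Acss2, Acaca, Fasn, Elovl6, Scd1), 2 were lower (Srebf1, Lpin1) and 2 were not called (Scd2, Fads2). There 29.4% of all genes tested were called higher and 27.8% lower (57.2% in all), and the median was 0.37 over the 10 genes and 0.00 over all. Groups did not overlap in 8 of the 10 genes upward and 2 downward, against 33.8% and 32.5% of all genes. The 2 comparisons share no library, and these counts were the same without both WT libraries that stand apart. Since the genes were chosen with earlier results known, the contrast with all genes is a description and not a test.

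Srebf1 (chromosome 11, 60199084 to 60224186) was lower in Vps15KO in both media, while the other 9 genes were higher in basal medium. It had 880, 947 and 891 normalised counts in Vps15KO EBSS and 1304, 1287 and 1305 in Vps15KO basal libraries. In WT libraries it had 1104, 1235 and 1209 in EBSS and 1641, 1506 and 1649 in basal medium. The order from low to high was Vps15KO EBSS, WT EBSS, Vps15KO basal and WT basal, and no neighbours in it overlapped. Vps15KO cells had 76.6% of the WT level in EBSS (log2 difference -0.37 ± 0.06, SE, adjusted p = 5.5e-05) and 81.2% in basal medium (-0.29 ± 0.06, adjusted p = 0.000606). Without the 2 libraries that stand apart the differences were -0.42 in EBSS and -0.34 in basal medium.

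The genes of acetyl-CoA supply were higher in Vps15KO in both media, Acss2 the most of the 10. Acss2 (chromosome 2, 155518043 to 155562743) had 687, 691 and 704 normalised counts in Vps15KO EBSS and 697, 863 and 881 in Vps15KO basal libraries. In WT it had 328, 287 and 321 in EBSS and 383, 326 and 394 in basal medium. Every Vps15KO library was above every WT library, and within a genotype the media overlapped. The level was 2.22-fold that of WT in EBSS (log2 difference 1.09 ± 0.09, adjusted p = 1.05e-08) and 2.21-fold in basal medium (1.09 ± 0.09, adjusted p = 1.18e-08). Acly (chromosome 11, 100476352 to 100528000) had 3721, 3688 and 3618 in Vps15KO EBSS and 3910, 4227 and 4511 in Vps15KO basal libraries. WT libraries had 2656, 2627 and 2345 in EBSS and 2546, 2292 and 2483 in basal medium. Here too the genotypes did not overlap, and in Vps15KO the basal libraries were all above the EBSS libraries. Acly was 1.45-fold higher in Vps15KO in EBSS (0.53 ± 0.07, adjusted p = 1.93e-06) and 1.73-fold in basal medium (0.78 ± 0.07, adjusted p = 1.49e-08). Without both libraries that stand apart the log2 differences in EBSS and basal medium were 1.12 and 1.01 for Acss2, and 0.56 and 0.74 for Acly.

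Both enzymes of palmitate synthesis were higher in Vps15KO. Fasn (chromosome 11, 120805958 to 120825166) had 5286, 5161 and 4978 normalised counts in Vps15KO EBSS and 5006, 6072 and 5743 in Vps15KO basal libraries. WT EBSS libraries had 4097, 3662 and 3309, and WT basal libraries 3354, 3892 and 3345. The lowest Vps15KO library was above the highest WT library, and media overlapped within each genotype. Fasn was 1.39-fold higher in Vps15KO in EBSS (0.48 ± 0.08, adjusted p = 7.27e-05) and 1.59-fold in basal medium (0.66 ± 0.08, adjusted p = 2.06e-06). Acaca (chromosome 11, 84129635 to 84401651) had 1296, 1318 and 1293 in Vps15KO EBSS and 1516, 1635 and 1504 in Vps15KO basal libraries. It had 978, 901 and 759 in WT EBSS and 1100, 1403 and 1077 in WT basal libraries. The 1403 of WT basal replicate 2, a library that stands apart, was the highest WT value, above the Vps15KO EBSS libraries and below the Vps15KO basal ones. Acaca was 1.48-fold higher in EBSS (0.56 ± 0.09, adjusted p = 4.97e-05) and 1.30-fold in basal medium (0.38 ± 0.09, adjusted p = 0.00186). Without both libraries that stand apart these differences were 0.64 and 0.50, and those of Fasn 0.56 and 0.73.

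Elovl6 (chromosome 3, 129532386 to 129638495) had 807, 838 and 778 normalised counts in Vps15KO EBSS and 916, 1051 and 1035 in Vps15KO basal libraries. In WT it had 558, 559 and 528 in EBSS and 662, 586 and 733 in basal medium. The 4 groups did not overlap, with WT EBSS lowest and Vps15KO basal highest. This elongase was 1.47-fold higher in Vps15KO in EBSS (0.54 ± 0.08, adjusted p = 1.21e-05) and 1.52-fold in basal medium (0.58 ± 0.08, adjusted p = 5.06e-06), with 0.55 and 0.50 on the log2 scale without both libraries that stand apart.

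The desaturases were higher in Vps15KO in basal medium, and the log2 difference was smaller in EBSS by the interaction test. Scd1 (chromosome 19, 44394450 to 44407709) had 9024, 9223 and 8852 normalised counts in Vps15KO EBSS and 8947, 9148 and 9763 in Vps15KO basal libraries. It had 8131, 7266 and 7295 in WT EBSS and 5542, 4599 and 5397 in WT basal libraries. WT basal was lowest, WT EBSS came between, and the Vps15KO groups overlapped each other above both. The Vps15KO level was 1.19-fold that of WT in EBSS (0.26 ± 0.07, adjusted p = 0.00462) and 1.79-fold in basal medium (0.84 ± 0.07, adjusted p = 1.28e-08). Scd2 (chromosome 19, 44293676 to 44306864) had 24569, 24513 and 24353 in Vps15KO EBSS and 24673, 26186 and 28028 in Vps15KO basal libraries. WT libraries had 24153, 23266 and 21964 in EBSS and 18553, 16199 and 19267 in basal medium. The order of groups was that of Scd1, with no overlap, and WT EBSS replicate 1 was just below the Vps15KO EBSS libraries. In EBSS the Scd2 difference was 0.08 (95% interval -0.07 to 0.24, adjusted p = 0.346), and with quantile normalisation it was called (0.30, adjusted p = 0.00449). In basal medium Scd2 was 1.46-fold higher in Vps15KO (0.55 ± 0.07, adjusted p = 3.96e-06). Fads2 (chromosome 19, 10062765 to 10101503) had 3767, 3758 and 4016 in Vps15KO EBSS and 3791, 3848 and 4098 in Vps15KO basal libraries, against 3670, 3647 and 3698 in WT EBSS and 2935, 3062 and 2913 in WT basal libraries. WT basal stood below the other 3 groups, which lay close together. The Fads2 difference was 0.07 in EBSS (95% interval -0.05 to 0.18, adjusted p = 0.32), and in basal medium it was 1.32-fold higher in Vps15KO (0.39 ± 0.05, adjusted p = 7.22e-06). Without both libraries that stand apart the log2 differences in EBSS and basal medium were 0.31 and 0.76 for Scd1, 0.11 and 0.47 for Scd2, and 0.07 and 0.42 for Fads2.

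Lpin1 was the gene whose genotype difference changed sign between media. On chromosome 12 (16535669 to 16653903), it had 684, 718 and 711 normalised counts in Vps15KO EBSS and 675, 741 and 800 in Vps15KO basal libraries. In WT it had 904, 817 and 809 in EBSS and 461, 406 and 478 in basal medium. WT basal was lowest and WT EBSS highest, and the Vps15KO groups overlapped each other between them. In EBSS Lpin1 was at 83.5% of WT in Vps15KO (-0.25 ± 0.08, adjusted p = 0.0106), and in basal medium it was 1.65-fold higher (0.69 ± 0.08, adjusted p = 6e-07). The difference in EBSS was not called without WT EBSS replicate 1 (-0.20, adjusted p = 0.0594) and was called without both libraries that stand apart (-0.20, adjusted p = 0.0138), where that in basal medium was 0.62.

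**Figure D2:**
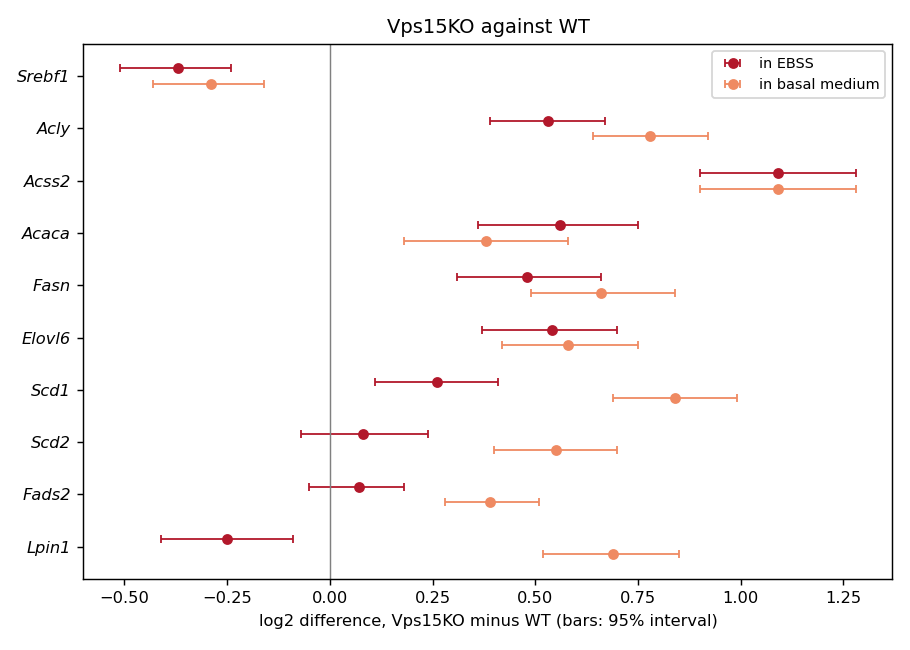
Log2 difference of Vps15KO minus WT (horizontal axis) for each of the 10 genes, in EBSS and in basal medium, as points with 95% intervals. Acss2 is at 1.09 in both media, Srebf1 is below 0 in both, and Lpin1 is at -0.25 in EBSS and 0.69 in basal medium.

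EBSS lowered some of these genes and, in WT cells, raised others. In Vps15KO cells, 4 of the 10 fell (Srebf1, Acly, Acaca, Elovl6), 0 rose and 6 were not called, where 26.1% of all genes tested fell and 25.9% rose (52.0% in all). In WT cells, 4 fell (Srebf1, Acss2, Acaca, Elovl6), 4 rose (Scd1, Scd2, Fads2, Lpin1) and Acly and Fasn were not called, where 31.3% of all genes fell and 31.4% rose (62.7% in all). With 10 genes, 4 called in a direction is near these shares. Groups did not overlap in 5 of the 10 genes downward and 0 upward in Vps15KO, against 31.9% and 31.1% of all genes, and in 3 downward and 4 upward in WT, against 32.5% and 32.7%. The median log2 change was -0.16 in Vps15KO and 0.06 in WT over the 10 genes, and -0.02 in each over all genes tested. The EBSS effect differed between genotypes by the interaction test in 4 of the 10 genes, all more negative in Vps15KO (Lpin1, Scd1, Scd2, Fads2), also without both WT libraries that stand apart. Without these libraries 5 of the 10 fell in Vps15KO, Acss2 being added (-0.21, adjusted p = 0.0134), and the 4 falls and 4 rises in WT were called. Of all genes tested, 8.24% were called more negative and 9.55% more positive in Vps15KO (17.8% in all).

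Of the 10 genes, Lpin1 in WT cells had the largest change in EBSS. It rose 1.88-fold in WT (log2 change 0.87 ± 0.08, adjusted p = 2.39e-08), with all EBSS libraries above all basal libraries. The change in Vps15KO was -0.06 (95% interval -0.23 to 0.10, adjusted p = 0.523). The difference of the changes was -0.94 ± 0.11 (adjusted p = 1.45e-05), and -0.82 without both libraries that stand apart. Scd1, with a change of -0.04 in Vps15KO (95% interval -0.19 to 0.11), rose by 0.55 ± 0.07 in WT (adjusted p = 2.59e-06). Its difference was -0.59 ± 0.10 (adjusted p = 0.000578), and -0.45 without both libraries. Scd2 changed by -0.10 in Vps15KO (95% interval -0.25 to 0.05) and rose by 0.36 ± 0.07 in WT (adjusted p = 0.000278), a difference of -0.46 ± 0.10 (adjusted p = 0.00422), and -0.36 without both libraries. The delta-6 desaturase Fads2 changed by -0.02 in Vps15KO (95% interval -0.14 to 0.09) and rose by 0.30 ± 0.05 in WT (adjusted p = 0.000107), a difference of -0.33 ± 0.08 (adjusted p = 0.00685), and -0.35 without both libraries. Without them the rises in WT were 0.76 for Lpin1, 0.41 for Scd1, 0.26 for Scd2 and 0.33 for Fads2, all called. In Scd1, Scd2 and Fads2 the WT EBSS libraries lay between WT basal and Vps15KO, and in Lpin1 they lay above Vps15KO. With length and GC trends removed the changes in Vps15KO were called for Lpin1 (-0.22, adjusted p = 0.0083), Scd1 (-0.19, adjusted p = 0.00676) and Scd2 (-0.26, adjusted p = 0.000716). The change in WT and the Vps15KO difference in basal medium share the WT basal libraries.

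Srebf1 fell in EBSS in both genotypes, with log2 changes of -0.51 ± 0.06 in Vps15KO (adjusted p = 2.56e-06) and -0.43 ± 0.06 in WT (adjusted p = 1.18e-05). The difference was -0.08 ± 0.09 (adjusted p = 0.593). Elovl6 changed by -0.30 ± 0.08 in Vps15KO (adjusted p = 0.00411) and by -0.25 ± 0.08 in WT (adjusted p = 0.00964). In WT it was not called without WT basal replicate 3 (-0.18, adjusted p = 0.0647). Acaca changed by -0.25 ± 0.09 in Vps15KO (adjusted p = 0.0333) and by -0.43 ± 0.09 in WT (adjusted p = 0.000656). Its call in Vps15KO was lost when any 1 of the 6 Vps15KO libraries was left out (adjusted p = 0.0529 to 0.122), with no filter (0.0692) and with no variance trend (0.0673). For Acly the change was -0.19 ± 0.07 in Vps15KO (adjusted p = 0.0202) and 0.06 ± 0.07 in WT (adjusted p = 0.463), with a difference of -0.25 ± 0.09 (adjusted p = 0.0716) that was called without Vps15KO basal replicate 1 (-0.30, adjusted p = 0.0442) or WT EBSS replicate 3 (-0.31, adjusted p = 0.0345), with library weights (-0.23, adjusted p = 0.0218) and after removal of length and GC trends (-0.24, adjusted p = 0.044). The Acly call in Vps15KO was lost without Vps15KO EBSS replicate 2 or 3 or Vps15KO basal replicate 2 or 3 (adjusted p = 0.0504 to 0.117). Acss2 moved by -0.21 ± 0.09 in Vps15KO (adjusted p = 0.0569) and -0.22 ± 0.09 in WT (adjusted p = 0.0458), and its WT value was -0.33 without both libraries that stand apart. In WT the values without both libraries were -0.42 for Srebf1, -0.34 for Elovl6 and -0.38 for Acaca. The Acss2 changes in the 2 genotypes lie on either side of the threshold and differed by 0.00 ± 0.13. In Vps15KO the call was gained without Vps15KO basal replicate 1 (-0.32, adjusted p = 0.00749) or WT basal replicate 2 (-0.21, adjusted p = 0.0194). It was gained also with quantile normalisation, equal medians, library weights, a fit of only the groups compared, and voom (-0.26 to -0.21, adjusted p = 0.00361 to 0.0418). In WT it was lost when any 1 of Vps15KO EBSS replicates 1 to 3, Vps15KO basal replicate 2, WT EBSS replicates 2 and 3 and WT basal replicates 1 and 3 was left out (adjusted p = 0.0519 to 0.183), and under 6 other settings (adjusted p = 0.0578 to 0.0882). Fasn, the synthase itself, was called in neither genotype (-0.12, 95% interval -0.29 to 0.05, in Vps15KO, and 0.06, 95% interval -0.11 to 0.24, in WT). In Vps15KO it was called with quantile normalisation (-0.20, adjusted p = 0.035), library weights (-0.14, adjusted p = 0.04) and length and GC trends removed (-0.26, adjusted p = 0.00186). Its difference between genotypes was called with library weights (-0.25, adjusted p = 0.03) and after removal of length and GC trends (-0.30, adjusted p = 0.0174).

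**Figure D3:**
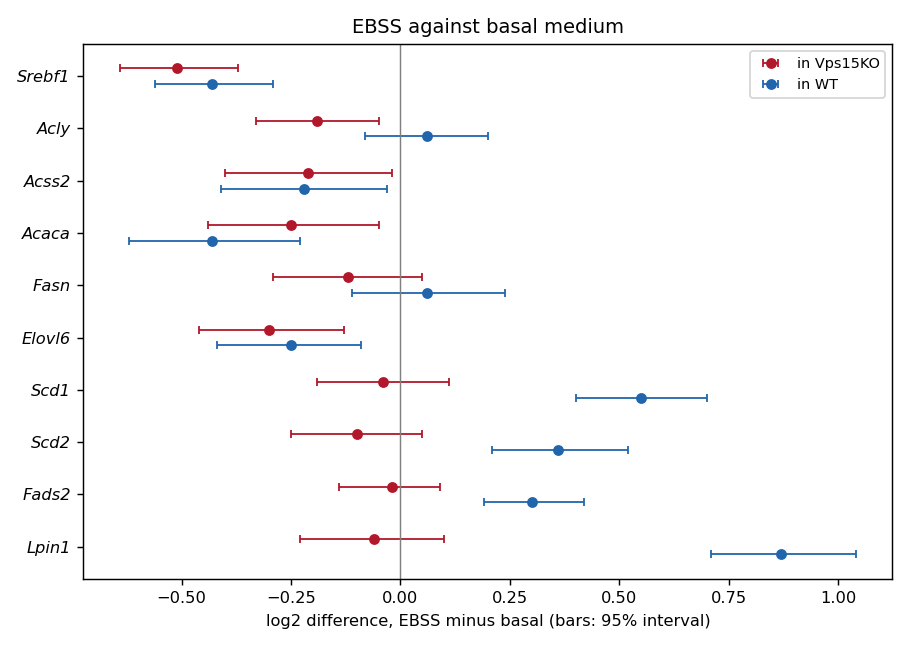
Log2 change in EBSS minus basal medium (horizontal axis) for each of the 10 genes, in Vps15KO and in WT cells, as points with 95% intervals. Lpin1, Scd1, Scd2 and Fads2 are at 0.30 to 0.87 in WT and at -0.10 to -0.02 in Vps15KO, while Srebf1 is at -0.51 in Vps15KO and -0.43 in WT.

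The genes around the pathway were described by 8 lists of known members, chosen with earlier results of these data known. Their counts stand against the shares of all genes tested, which were 29.4% higher and 27.8% lower in Vps15KO in EBSS, 29.3% and 29.2% in basal medium, and 25.9% raised and 26.1% lowered by EBSS in Vps15KO and 31.4% and 31.3% in WT. A list of SREBP processing genes and partner regulators (the regulator list below) also held genes outside SREBP processing, among them Cebpa, Pparg and Mid1ip1. Of its 15 genes, 13 were tested (not Mlxipl and Thrsp). Of these, 8 were higher and 3 lower in Vps15KO in EBSS, and 7 were higher and 3 lower in basal medium. The lower ones in each medium were Scap, Mbtps1 and Cebpa. Scap had mean normalised counts of 1524 in Vps15KO and 1969 in WT in EBSS, and 1385 and 1982 in basal medium. For Mbtps1 these were 6367 and 8804, and 5558 and 7355. The log2 difference of Cebpa was -1.43 ± 0.10 in EBSS and -0.65 ± 0.10 in basal medium. Insig1, which holds the SREBP escort in the endoplasmic reticulum and is itself a target of SREBP, had 9374, 8865 and 8300 normalised counts in Vps15KO EBSS and 6194, 6392 and 6967 in Vps15KO basal libraries. It had 3301, 3511 and 3812 in WT EBSS and 1241, 1011 and 1313 in WT basal libraries, so no groups overlapped. Insig1 was higher in Vps15KO by 1.31 ± 0.08 on the log2 scale in EBSS (adjusted p = 2.99e-10) and by 2.43 ± 0.08 in basal medium (adjusted p = 2.32e-13). Srebf2, the gene of the SREBP that drives cholesterol synthesis, was higher by 0.84 ± 0.06 in EBSS and 0.78 ± 0.06 in basal medium, while Srebf1 was lower. Mid1ip1, whose product promotes the polymerisation of acetyl-CoA carboxylase, was higher by 1.75 ± 0.06 in EBSS and 1.16 ± 0.06 in basal medium. Of 9 genes of citrate export and NADPH supply, 5 were higher and 2 lower in EBSS, and 6 were higher and 1 lower in basal medium. They included Slc25a1, the mitochondrial citrate carrier (0.54 ± 0.08 in EBSS, 0.52 ± 0.08 in basal medium), and Me1, the cytosolic malic enzyme (0.57 ± 0.06 and 0.69 ± 0.06). Of 16 other synthesis, elongation and desaturation genes, 9 were higher and 4 lower in each medium. The delta-5 desaturase Fads1 was higher by 0.66 ± 0.05 in EBSS and 0.89 ± 0.05 in basal medium, and the elongase Elovl4 by 1.04 ± 0.08 and 1.23 ± 0.08. Median log2 differences in EBSS and basal medium were 0.34 and 0.64 for the regulator list and 0.25 and 0.40 for citrate and NADPH. They were 0.23 and 0.36 for the other enzymes, against 0.00 and -0.01 for all genes tested. In EBSS, 3 genes of the regulator list rose and 5 fell in Vps15KO, and 5 rose and 4 fell in WT. Insig1 rose by 0.44 ± 0.08 in Vps15KO and 1.56 ± 0.08 in WT, with a difference of -1.12 ± 0.12 (adjusted p = 5.53e-06). Cebpa, a transcription factor of adipocytes, rose by 1.47 ± 0.10 in Vps15KO and 2.24 ± 0.10 in WT. Of the citrate and NADPH genes 1 rose and 4 fell in each genotype, among them Slc25a1 (log2 change -0.64 ± 0.08 in Vps15KO and -0.66 ± 0.08 in WT). Of the 16 other enzymes 3 rose and 4 fell in Vps15KO, and 4 rose and 6 fell in WT, near the shares of all genes. The interaction was called in 4 genes of the regulator list (Mid1ip1 more positive, and Insig1, Cebpa and Ppargc1b more negative in Vps15KO). It was called in 1 of the citrate and NADPH genes (Pgd, negative) and 2 of the other enzymes (Elovl5 and Fads1, negative). Of all genes tested, 9.55% were more positive and 8.24% more negative (17.8% in all). In the cholesterol list these calls were 2 and 3 of 23, and in PPAR targets and oxidation 0 and 6 of 15. They were 0 and 3 of 8 in acyl-CoA activation, 0 and 3 of 18 in glycerolipid synthesis, and 1 and 2 of 5 in lipolysis.

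The cholesterol pathway, which shares the SREBP processing genes, was higher in Vps15KO in 20 of 23 tested genes in EBSS. In basal medium 21 of 23 were higher, with 0 lower in either medium. Its median log2 difference was 1.06 in EBSS and 1.26 in basal medium, larger than the 0.37 and 0.62 of the 10 genes. Msmo1, a sterol C4 methyl oxidase, was higher by 1.95 ± 0.06 in EBSS and 1.49 ± 0.06 in basal medium, and the squalene epoxidase Sqle by 1.61 ± 0.08 in basal medium. In EBSS this list fell at 15 genes and rose at 2 in Vps15KO, and fell at 11 and rose at 4 in WT. Of 15 PPAR targets and oxidation genes, 10 were lower and 3 higher in Vps15KO in EBSS, and 7 were lower and 4 higher in basal medium. Cpt1a, which admits long-chain acids to mitochondria, had 3622 ± 89.9 in Vps15KO EBSS and 1518 ± 76.2 in Vps15KO basal libraries, against 11992 ± 799 in WT EBSS and 3629 ± 289 in WT basal libraries. Cpt1a was lower in Vps15KO, with log2 differences of -1.72 ± 0.07 in EBSS and -1.24 ± 0.07 in basal medium (adjusted p = 7.34e-13 and 4.35e-11). In EBSS 4 of these 15 rose and 3 fell in Vps15KO, and 8 rose and 4 fell in WT, where 25.9% and 26.1% of all genes did so in Vps15KO and 31.4% and 31.3% in WT, so the counts in Vps15KO are near those shares. The median log2 difference of the list was -0.35 in EBSS and -0.11 in basal medium.

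Among 18 genes of glycerolipid synthesis, Lpin1 not counted, 4 were higher and 8 lower in Vps15KO in EBSS, and 2 were higher and 5 lower in basal medium. EBSS raised 6 and lowered 3 in Vps15KO, and raised 9 and lowered 4 in WT. The 5 lower in basal medium are near the 29.2% of all genes. The median was -0.07 in EBSS and -0.10 in basal medium for Vps15KO minus WT, and -0.02 in Vps15KO and 0.18 in WT for the change in EBSS, against 0.00, -0.01, -0.02 and -0.02 for all genes tested. The paralogs of Lpin1 did not share its pattern of calls. Lpin2 had 1660 ± 82.0 normalised counts in Vps15KO EBSS, 1204 ± 33.4 in Vps15KO basal, 1317 ± 5.40 in WT EBSS and 903 ± 46.9 in WT basal libraries. Lpin2 was higher in Vps15KO in both media (log2 difference 0.33 ± 0.06 in EBSS and 0.40 ± 0.06 in basal medium). It rose in EBSS in both genotypes, by 0.45 ± 0.06 in Vps15KO and 0.53 ± 0.06 in WT, and the difference of -0.08 ± 0.09 was not called (adjusted p = 0.586). Lpin3 was lower in Vps15KO in both media (-0.51 ± 0.06 in EBSS, -0.66 ± 0.06 in basal medium). It rose in EBSS by 0.42 ± 0.06 in Vps15KO and 0.28 ± 0.06 in WT, and the difference of 0.15 ± 0.09 was not called (adjusted p = 0.293). Gpat3, a glycerol-3-phosphate acyltransferase, rose in EBSS by 2.08 ± 0.13 in Vps15KO and 2.25 ± 0.13 in WT. Of 8 genes of acyl-CoA activation, EBSS raised 2 and lowered 2 in Vps15KO, near the shares of all genes, and raised 4 and lowered 2 in WT. In that list 3 were higher and 4 lower in Vps15KO in EBSS, and 4 were higher and 4 lower in basal medium. Of 5 genes of lipolysis, EBSS raised 2 and lowered 2 in Vps15KO and raised 4 and lowered 0 in WT, and Lipe, the hormone-sensitive lipase, had a difference of the EBSS effect of -0.95 ± 0.11 (adjusted p = 1.3e-05).

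**Figure D4:**
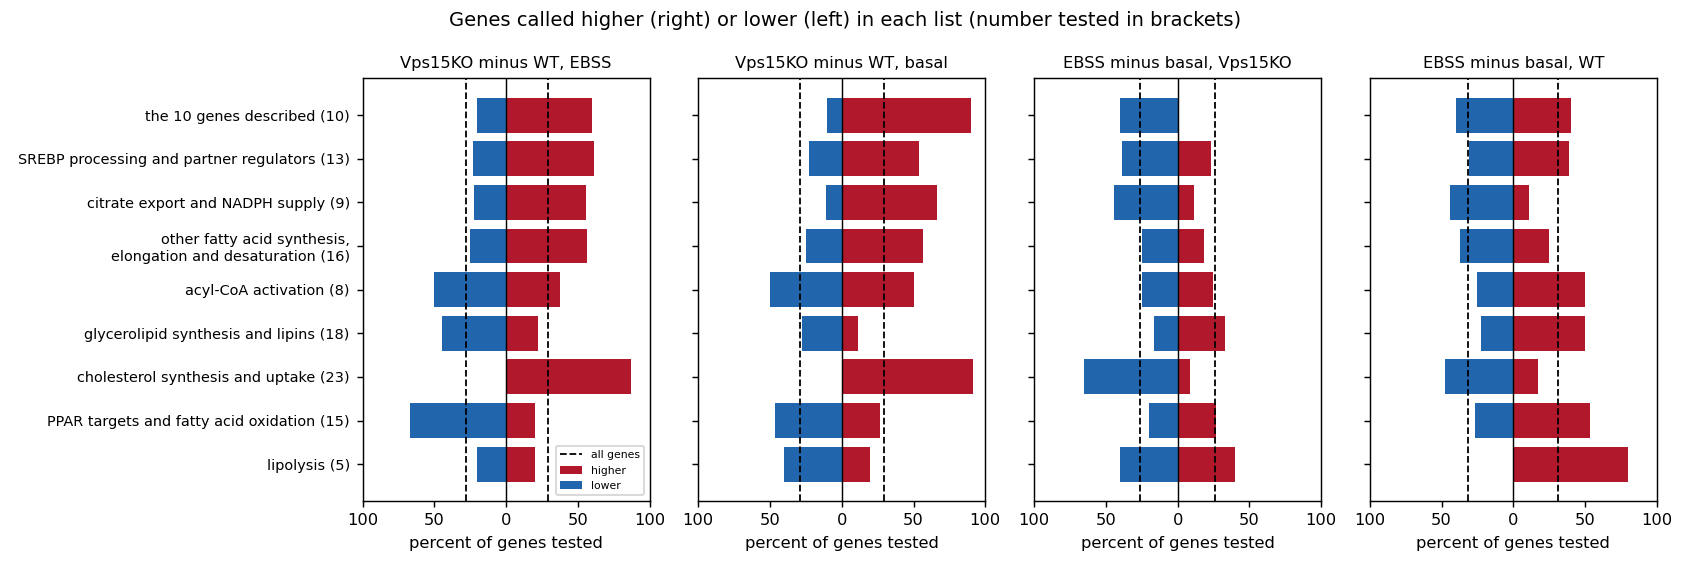
Percent of the tested genes of each list called higher (right of 0) or lower (left of 0) in the 4 comparisons, for the 10 genes described and the 8 lists around them, with the number tested in brackets and dashed lines at the percent of all genes tested. In both comparisons of Vps15KO with WT the cholesterol list has 0 genes called lower, and in the comparison of EBSS with basal medium in Vps15KO the 10 genes have 0 called higher.

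Genes with profiles like that of Lpin1 were sought over the 12 libraries, by Pearson's r of the deposited log2 values, among 2586 genes whose highest and lowest group means differed by at least 1 on the log2 scale. The 5 nearest were Trim37 (r = 0.962), Abtb2 (0.942), Hsd17b7 (0.935), Acsl3 (0.934) and Pxylp1 (0.927). All share WT basal as their lowest group. In each, the mean was higher in Vps15KO EBSS than in Vps15KO basal libraries (620 and 594 in Trim37). Lpin1 had the reverse (705 and 739), with overlap. Acsl3, an acyl-CoA synthetase of lipid droplets, had 1667, 1578 and 1500 normalised counts in Vps15KO EBSS and 1046, 1074 and 1202 in Vps15KO basal libraries, against 1828, 1715 and 1690 in WT EBSS and 539, 441 and 619 in WT basal libraries. Acsl3 also rose in Vps15KO in EBSS (0.50 ± 0.09, adjusted p = 0.000158), though by less than in WT (1.67 ± 0.09), with a difference of -1.17 ± 0.13 (adjusted p = 8.19e-06). Hsd17b7, of cholesterol synthesis, had 647 ± 7.48 in Vps15KO EBSS, 466 ± 34.0 in Vps15KO basal, 640 ± 57.6 in WT EBSS and 181 ± 34.0 in WT basal libraries. For Srebf1 the nearest were Commd5 (0.978), Gcnt4 (0.976), Zdhhc12 (0.975), Inha (0.970) and Zfp14 (0.967). These correlations rest on 4 groups of 3 libraries and do not require the same order of the groups.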

How the data were processed

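Strand-marked poly-A libraries were sequenced in read pairs, per the labels' protocols. Per the submitters' processing notes the build was mm10 and the tools were limma, DESeq2, featureCounts and STAR 2.7.10b, with no role given for each. Whether counting used strand is not stated. The authors deposited 1 table of log2 values, a variance-stabilising transformation of size-factor normalised counts. Its floor is that of a count of 0, and inverting it gave whole reads in 100% of values (tolerance 0.001), with size factors of 0.945 to 1.02. The test covered 14279 genes whose mean lay at least 1 above that floor. In limma 3.58.1 (R 4.3.3) the deposited values of the 12 libraries were modelled with 1 mean per group, a variance trend and empirical Bayes (8 residual and 10.2 prior degrees of freedom). Tests were two-sided, with Benjamini-Hochberg adjustment within each of 5 comparisons: EBSS in each genotype, Vps15KO in each medium, and their interaction. A list is described by its counts, without a set test. Named genes were the 10, Pik3r4, up to 4 called genes with the smallest p of each list and comparison, and the 5 most like Lpin1 and Srebf1. The text gives a selection of these. Lpin2 and Lpin3 are given in all comparisons as paralogs. The members and lists were chosen with earlier results of these data known. Alternatives were a replicate block, other filters, scalings, variance models, thresholds, voom on the worked-back reads, removal of length and GC trends, and libraries left out. Positions are from RefSeq (GRCm38.p6). The fit was tested on simulated data. A count of 0 allows up to 3 reads, for counting error only.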

Additional observations from a re-analysis of the deposited data

Results flagged for a closer look

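In 4 of the 10 genes the change from basal medium to EBSS differed between Vps15KO and WT cells by the interaction test of limma. Of all genes tested, 17.8% were called in that test, 8.24% as more negative in Vps15KO. The difference (Vps15KO minus WT, log2) was -0.94 for Lpin1, -0.59 for Scd1, -0.46 for Scd2 and -0.33 for Fads2, with adjusted p = 1.45e-05, 0.000578, 0.00422 and 0.00685 in the same order. Each gene had a change of -0.10 to -0.02 in Vps15KO cells and a rise of 0.30 to 0.87 in WT cells.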

How the results depend on the processing

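Over 26 alternatives, 1205 of 1290 values of the 10 genes kept their side of the threshold, 64 lost a call and 21 gained one. Of the called values 0 changed sign, while some values not called did. The EBSS change of Acly in WT was 0.06, and -0.02 without both libraries that stand apart. The interaction calls of Lpin1, Scd1, Scd2 and Fads2 were kept under each alternative except a log2 change of at least 1. At that threshold the genes called higher and lower among the 10 were 0 and 0 for EBSS in Vps15KO and in WT, 1 and 0 for Vps15KO in each medium, and 0 and 0 for the difference. Over all genes they were 411 and 88 (EBSS, Vps15KO), 558 and 239 (EBSS, WT), 450 and 298 (Vps15KO, EBSS), 421 and 275 (Vps15KO, basal) and 65 and 53 (difference). At adjusted p under 0.01, EBSS lowered 2 of the 10 in Vps15KO, Vps15KO lowered 1 in EBSS, and 707 and 520 genes had a higher and a lower difference. At the main threshold 26.1% and 27.8% of all genes were lower in the first and second of these comparisons. Their shares at 0.01 are not given here. With length and GC trends removed (13527 genes), EBSS lowered 8 of the 10 in Vps15KO, Lpin1 among them (-0.22, adjusted p = 0.0083). The main fit had 4 of the 10 and 26.1% of all genes lowered there. The share of all genes with these trends removed is not given here, so the 8 cannot be set against it. The cause of the added calls was not tested. Library weights, with 0.159 for WT basal replicate 2, gave 1805 genes with a lower difference. Quantile normalisation called Scd2 higher in Vps15KO in EBSS (0.30, adjusted p = 0.00449).

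Leaving out 1 library gave 2 to 5 of the 10 genes lowered by EBSS in Vps15KO, where 3023 to 4237 of all 14279 genes were lowered. In WT it gave 2 to 4 (2 without WT basal replicate 3), where 4031 to 4448 of all genes were lowered. Of the 10, 1 to 2 were lower in Vps15KO in EBSS, as were 3556 to 4430 of all genes. A lower difference was called in 4 to 5 of the 10 and in 832 to 1516 of all genes. The EBSS call of Acss2 in WT was lost under 6 settings besides the 2 stricter thresholds (adjusted p = 0.0578 to 0.0882) and when any 1 of 8 libraries was left out (adjusted p = 0.0519 to 0.183). With each group's mean subtracted, same-numbered libraries correlated at 0.124, 0.039 and 0.118 between genotypes in EBSS and at 0.09, 0.26 and 0.083 in basal medium. Between media they correlated at -0.155 to 0.012. Libraries with different numbers correlated at -0.111 to -0.012 between genotypes in EBSS and at -0.212 to 0.106 in basal medium. Between media these gave -0.074 to 0.142. Between genotypes all same-numbered pairs were thus positive, and in EBSS all were above the pairs with different numbers. In basal medium not all were. The labels do not say what a number marks, so the main fit did not pair the libraries. With the replicate block the interaction of Lpin1 was -0.94 (adjusted p = 3.19e-05), and no call of the 10 genes changed.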
